A study of Rattus norvegicus with 24 samples.

Results

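Liver and spleen were compared within rats that had received cyclophosphamide, on 12 of the 24 arrays of the series. The arrays were chosen by their labels: a liver and a spleen array of each of 6 rats, paired by animal number. The rats were wild-type male Sprague-Dawley animals, 46 to 49 days old, dosed by mouth for 5 days. Animals 4001, 4003 and 4005 had received cyclophosphamide at 40 mg/kg/day in cages with wood blocks or sticks, and animals 2001, 2003 and 2005 the same dose with no wood. The other 12 arrays, from 3 vehicle rats with wood and 3 without, served as the baseline for the organ difference. Each organ was frozen separately and its total RNA was hybridised to 1 Affymetrix rat array. The labels give no perfusion of the organs and no blood count, so the blood left in them is unknown.

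Liver is built mainly of hepatocytes, which make plasma proteins, urea and bile acids, with Kupffer cells and a fenestrated endothelium along its sinusoids. Spleen filters blood in its red pulp, where macrophages break down old red cells, and holds B and T cells in its white pulp. In rats of this age it also forms red cells. Cyclophosphamide is a prodrug that liver P450 enzymes turn into a DNA-alkylating agent, and its best known targets are blood-forming cells and lymphocytes that divide. The comparison therefore addresses which differences between the organs are found after such cells have been hit.

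Levels are log2 intensities with a floor of 5.00, at which blank or dimmer spots were set. The organ difference is liver minus spleen of the same rat, averaged over 6 rats and given with its SE, and the change is the organ difference in cyclophosphamide rats minus that in vehicle rats. A positive change thus means that liver gained on spleen. Where an organ was at the floor on all 6 arrays, the fold is a lower bound. A change that involves such an organ may be too small or too large. For a single gene it is given as at least its size only where levels below the floor would enlarge it. Where an organ was at the floor in both treatments, its own shift cannot be seen. Of 14201 genes, 13257 were above the floor on at least 3 of 24 arrays and were tested. Sets of 3 levels are the lowest, the median and the highest of 6 rats. In whole organs, fewer cells of a type and less RNA per cell cannot be told apart. Each array took 5 µg of total RNA, so levels are relative to the RNA of the organ and are not amounts per organ. A rise in a gene and a larger share of the remaining RNA cannot be told apart either.

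Array facts that touch the results came first. Cyclophosphamide liver arrays had 4998 to 6060 blank cells and cyclophosphamide spleen arrays 1021 to 1798. Blanks were most frequent on the liver array of rat 2003, which correlated with other liver arrays at 0.847 in the mean, while the other 5 rats reached 0.906 to 0.916. The spleen of rat 2003 also carried RNA of exocrine pancreas, a tissue that lies against the spleen. Over 15 pancreas markers its mean level was 10.26, against 5.81 to 6.75 in the other 5 cyclophosphamide spleens and 5.65 to 6.78 in vehicle spleens. Of these 15 markers, 5 were at the floor on all 6 cyclophosphamide livers and 0 on all 6 cyclophosphamide spleens. The highest correlation of any liver array with a spleen array was 0.652. Organ labels matched their defining genes: 20 plasma protein genes averaged 13.02 to 13.19 in cyclophosphamide livers and 5.39 to 5.83 in cyclophosphamide spleens, while Spic and Itgad of splenic red pulp macrophages were at the floor in all 6 cyclophosphamide livers.

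The organs differed widely after the drug. With limma and an adjusted p below 0.05, 10673 of 13257 genes (80.5%) differed between liver and spleen in cyclophosphamide rats, 2534 (19.1%) higher in liver and 8139 (61.4%) higher in spleen; 10795 (81.4%) had an unadjusted p below 0.05. In vehicle rats 10722 (80.9%) differed, 2571 (19.4%) higher in liver and 8151 (61.5%) higher in spleen. This split rests on the scale of the arrays, since the median gene stood at −0.62 in both treatments. Centring each array on its median turned the cyclophosphamide split to 5322 higher in liver and 4588 higher in spleen, and quantile normalisation to 4801 and 5192. Genes were therefore also counted as liver-rich or spleen-rich, meaning called and at least 2-fold above or below the median gene. By that rule 2231 genes (16.8%) were liver-rich and 2776 (20.9%) spleen-rich in cyclophosphamide rats, against 2329 (17.6%) and 2849 (21.5%) in vehicle rats.

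The change between treatments passed for 4891 genes (36.9%), the background for list counts below: 2239 (16.9%) moved toward liver and 2652 (20%) toward spleen. It was at least 2-fold for 634 genes toward liver and 972 toward spleen, and at least 4-fold for 134 and 57. Spleen had the larger shift between treatments in 4351 of the 4891 changed genes (89.0%), against 9734 of all 13257 (73.4%). The floor hides shifts, and liver was there more often. In cyclophosphamide rats 579 genes were at the floor in all 6 livers and above it in all 6 spleens, against 178 the other way. In vehicle rats these counts were 794 and 163. The part of the floor in the spleen share was not tested. Of 2329 genes that were liver-rich in vehicle rats, 1839 were liver-rich in cyclophosphamide rats too, 488 were rich in neither organ and 2 were spleen-rich. Of 2849 genes that were spleen-rich in vehicle rats, 2101 were so in cyclophosphamide rats, 743 were rich in neither organ and 5 were liver-rich. For 4429 genes (33.4%) the 95% interval of the change lay within 1.5-fold, among them 735 (31.6%) of the liver-rich and 508 (17.8%) of the spleen-rich genes of vehicle rats. Without rat 2003, 4687 genes changed, and 4378 of them were among the 4891.

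**Figure D1:**
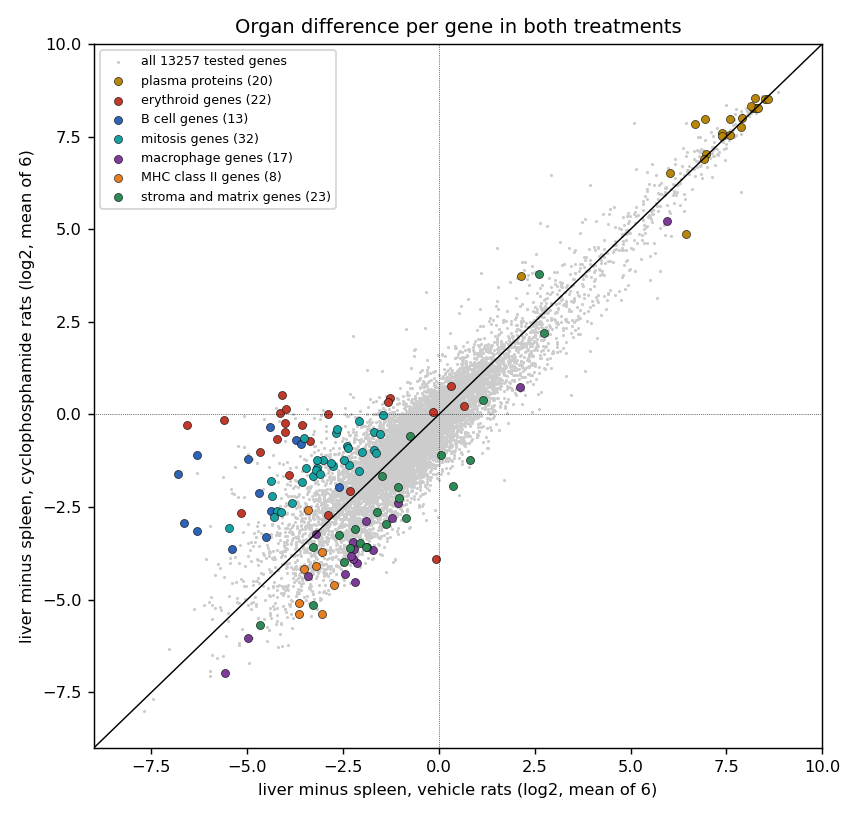
Organ difference of each of 13257 genes (log2, liver minus spleen, mean of 6 rats) in cyclophosphamide rats, vertical axis, against vehicle rats, horizontal axis, with 7 gene lists coloured and the line of equal values drawn. Plasma proteins lie on the line at the upper right, erythroid, B cell and mitosis genes lie above it on the spleen side, and macrophage, MHC class II and stroma genes mostly below it.

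The liver's secreted proteins kept their distance from spleen. All 20 plasma protein genes tested were liver-rich in both treatments, with a median organ difference of 7.90 in cyclophosphamide rats and 7.58 in vehicle rats, and their median change was 0.08, against 0.01 over all genes. For 12 of the 20 the interval of the change lay within 1.5-fold, while 3 moved toward liver and 1 toward spleen. Fgb, the fibrinogen beta chain, stood at 13.51, 13.59 and 13.68 in cyclophosphamide livers and at the floor in all 6 cyclophosphamide spleens, an organ difference of at least 387-fold. The same holds for Fetub, a liver protease inhibitor (at least 368-fold), Rbp4, the retinol carrier (at least 364-fold), Fga, the fibrinogen alpha chain (at least 329-fold), and Serpinc1, antithrombin (at least 322-fold). Alb, the main plasma protein, had levels of 13.13, 13.33 and 13.43 in cyclophosphamide livers and 5.00, 6.49 and 8.54 in cyclophosphamide spleens. The spread of Alb lay in spleen, and its organ difference was 6.51 ± 0.47 in cyclophosphamide rats and 6.02 in vehicle rats, with a change of 0.48 ± 0.66 (adjusted p = 0.609). Among genes above the floor on all 12 cyclophosphamide arrays, the largest difference toward liver was that of Pzp, a broad protease inhibitor of plasma, at 8.11 ± 0.08, or 276-fold. Cyp2e1, an ethanol-oxidising P450, followed at 8.02 ± 0.11 and Hp, which binds free haemoglobin, at 7.84 ± 0.17. All differences of this size are bounded by the range of the arrays, since levels ran only from the floor to 13.95 for Fabp1, the liver fatty acid binding protein, in cyclophosphamide livers.

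Promoter letters are shown for 3 liver-rich genes that hold them, because the hepatocyte factor HNF1 is known to act on liver promoters. Hnf4a, another factor of hepatocytes, had an organ difference of 6.70 ± 0.14 in cyclophosphamide rats and 6.81 in vehicle rats. Each window holds 60 bases upstream of the transcript start on the gene's own strand, from RefSeq on GRCr8. Capitals mark GTTAAT, the core letters of HNF1 sites, on either strand.
Alb, chr14:17907029-17907088, minus strand: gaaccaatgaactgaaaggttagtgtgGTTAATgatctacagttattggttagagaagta
Fgb, chr2:170700933-170700992, minus strand: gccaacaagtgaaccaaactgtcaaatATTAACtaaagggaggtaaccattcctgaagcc
Slc10a1, chr6:106357945-106358004, minus strand: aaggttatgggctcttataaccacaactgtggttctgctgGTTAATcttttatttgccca
The letters begin 82 bases upstream of the start in Alb and 20 bases upstream in Slc10a1, the bile salt importer of the hepatocyte, and 90 bases upstream in Fgb, on the reverse strand. Slc10a1 stood at 12.73, 12.83 and 13 in cyclophosphamide livers and at 5.00, 5.00 and 5.32 in cyclophosphamide spleens. Over the 250 upstream bases and both strands, GTTAAT occurred in 2160 of 33469 promoters (6.45%) and in 496 of 10979 tested genes with a promoter (4.52%). Among genes at least 16-fold from the median gene in cyclophosphamide rats it occurred in 49 of 325 on the liver side (15.1%) and in 6 of 116 on the spleen side (5.17%). A match is a description of letters, and no binding was measured.

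Metabolic lists of the hepatocyte were also liver-rich, with a few members that moved. All 18 genes of the urea cycle and amino acid breakdown were liver-rich in both treatments, with medians of 6.84 in cyclophosphamide rats and 6.77 in vehicle rats. For 14 of them the interval of the change lay within 1.5-fold, 2 moved toward liver and 1 toward spleen. Cps1, which fixes ammonia in the urea cycle, stood at 13.12, 13.32 and 13.40 in cyclophosphamide livers and at the floor in all 6 cyclophosphamide spleens, at least 314-fold apart. Of 18 P450 and conjugation genes, 17 were liver-rich in cyclophosphamide rats and 16 in vehicle rats. Changes passed for 3 toward each organ, near the share of all genes (16.9% toward liver and 20% toward spleen). Cyp2c11, the male-specific P450 of rat liver, had an organ difference of 6.50 ± 0.13 in cyclophosphamide rats and 6.85 in vehicle rats, and its change of −0.35 ± 0.18 did not pass (adjusted p = 0.16). All 12 hepatocyte transcription factors and all 9 gluconeogenesis genes were liver-rich in both treatments. Pck1, the rate-setting enzyme of gluconeogenesis, differed by 7.49 ± 0.19 in cyclophosphamide rats and 6.81 in vehicle rats, a change of 0.68 ± 0.27 (adjusted p = 0.0707).

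**Figure D2:**
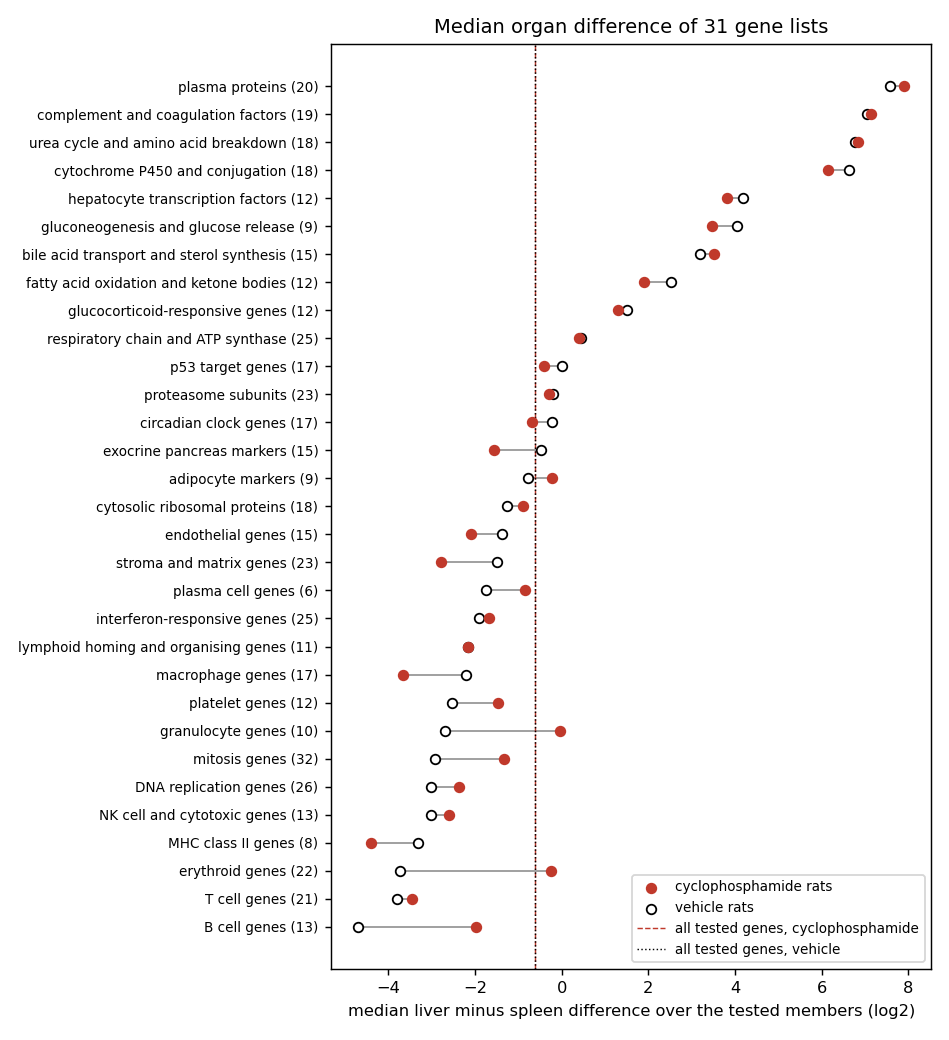
Median organ difference (log2, liver minus spleen) of the tested members of 31 gene lists in cyclophosphamide rats (filled) and vehicle rats (open), with the number of members in brackets and vertical lines at the median of all genes. Plasma protein medians are 7.90 and 7.58, while the erythroid median is −0.26 in cyclophosphamide rats and −3.73 in vehicle rats and the macrophage median −3.66 and −2.21.

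Some liver genes gained on spleen, and Hamp had the largest change of those named. It encodes hepcidin, the liver hormone that blocks iron export from macrophages and gut. Hamp stood at 13.31, 13.33 and 13.40 in cyclophosphamide livers and at 6.72, 6.84 and 7.20 in cyclophosphamide spleens. In vehicle rats it stood at 7.79, 10.05 and 12.57 in liver and at 6.37, 7.11 and 7.31 in spleen. All 6 cyclophosphamide livers lay above every vehicle liver, and the spleens overlapped. The organ difference was 6.46 ± 0.49 in cyclophosphamide rats and 2.91 in vehicle rats, a change of 3.55 ± 0.69 (adjusted p = 0.00232) that passed in each of 12 refits without 1 rat, at 2.92 to 4.02. In the 6 rats with wood alone it was 2.98 (adjusted p = 0.104).

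Other liver-rich genes gained with a lower spleen level and little shift in liver. Clcn4, a chloride and proton exchanger, stood at 9.59, 9.78 and 9.90 in cyclophosphamide livers, against 9.67, 9.73 and 9.97 in vehicle livers. Its spleen levels were 5.00, 5.05 and 6.03 in cyclophosphamide rats and 7.95, 8.25 and 8.65 in vehicle rats, without overlap, and the change was 3.00 ± 0.19 (adjusted p = 2.58e-06). Inhca, a transferrin-like inhibitor of carbonic anhydrase, followed the same pattern: all 6 cyclophosphamide spleens were at the floor, against 7.03, 8.15 and 8.57 in vehicle spleens, and its change was at least 2.78 ± 0.18. Alad, an early enzyme of haem synthesis, had spleen levels of 6.59, 6.91 and 7.60 in cyclophosphamide rats and 8.37, 10.10 and 10.75 in vehicle rats. Its liver levels overlapped, and its change was 2.72 ± 0.34 (adjusted p = 0.000148). F5, coagulation factor V, changed by 2.25 ± 0.20 and Reep6, a membrane-shaping protein of the endoplasmic reticulum, by 2.51 ± 0.27. Retreg1, a receptor for autophagy of the endoplasmic reticulum, changed by 2.35 ± 0.33, from probe sets that disagree on its organ difference in vehicle rats. Complement and coagulation factors as a list moved little, with 5 of 19 toward liver and 2 toward spleen (all genes: 16.9% and 20%). The 2 toward spleen were C1qa and C1qb, which macrophages make. Without rat 2005, 4 moved toward spleen.

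Some bile acid and sterol genes moved toward liver. Of 15 members, 7 passed toward liver and 0 toward spleen, with a median change of 0.32 and a median shift of 0.32 in liver. This count was 4 without rat 1001, 1003, 2003, 3001 or 4001 and 3 without rat 4005. Cyp7a1, the rate-limiting enzyme of bile acid synthesis, stood at 9.76, 9.89 and 11.24 in cyclophosphamide livers, against 7.80, 8.15 and 9.78 in vehicle livers. The livers overlapped only at the lowest cyclophosphamide and highest vehicle rat, and the spleens overlapped. The change was 1.79 ± 0.38 (adjusted p = 0.0038). Dhcr7, the last enzyme of cholesterol synthesis, was higher in all 6 cyclophosphamide livers (9.72, 10.36 and 10.69) than in any vehicle liver (9.14, 9.33 and 9.65), with a change of 1.53 ± 0.14 (adjusted p = 2.21e-05). Sqle, the epoxidase of the same pathway, changed by 1.42 ± 0.31. Outside that list, Serpina7, the thyroxine-binding globulin, changed by 1.62 ± 0.24 with all 12 spleens at the floor, and the glutathione transferase Gsta3 by 1.78 ± 0.30. Hp changed by 1.17 ± 0.24 through spleen, where it stood at 5.41, 5.57 and 5.71 in cyclophosphamide rats and 6.21, 6.65 and 7.89 in vehicle rats.

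Of the 2231 liver-rich genes of cyclophosphamide rats 364 (16.3%) moved toward spleen and 406 (18.2%) toward liver, while of the 2329 liver-rich genes of vehicle rats 662 (28.4%) moved toward spleen and 202 (8.67%) toward liver. Each of these sets was chosen by a value that enters the change, so neither split is read as a direction of the liver side. Fatty acid oxidation and ketone genes were among those that moved toward spleen. Of 12 members, 0 passed toward liver and 7 toward spleen, with medians of 1.90 in cyclophosphamide rats and 2.52 in vehicle rats. Fgf21, a fasting hormone made by liver, stood at 5.20, 6.40 and 6.96 in cyclophosphamide livers, against 7.49, 8.69 and 11.04 in vehicle livers. The liver levels did not overlap, spleen was near the floor in both treatments, and the change was −2.64 ± 0.57 (adjusted p = 0.00444). Angptl4, an inhibitor of lipoprotein lipase, moved in both organs: it stood at 8.88, 9.82 and 10.53 in cyclophosphamide livers and at 10.59, 10.71 and 11.03 in cyclophosphamide spleens. In vehicle rats it stood at 10.44, 10.95 and 11.18 in liver and 9.42, 9.63 and 9.79 in spleen. Its change was −2.20 ± 0.20 (adjusted p = 2.1e-05), and the organ that was higher turned. Cpt2, which brings fatty acids into mitochondrial oxidation, changed by −2.05 ± 0.32 and Pdk4, which brakes glucose oxidation, by −2.24 ± 0.40.

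Other genes lost liver lead with higher levels in cyclophosphamide spleens. Gcgr, the glucagon receptor, stood at 8.50, 8.91 and 9.04 in cyclophosphamide livers and at 6.49, 8.55 and 9.82 in cyclophosphamide spleens. Vehicle livers held 8.96, 9.16 and 9.27 and vehicle spleens 5.00, 5.40 and 7.23. Cyclophosphamide spleens overlapped with both their livers and vehicle spleens, and the change was −2.94 ± 0.31 (adjusted p = 4.8e-05), or −1.47 (adjusted p = 0.0989) in rats with wood alone. Agt, angiotensinogen, had spleen levels of 8.72, 8.93 and 9.67 in cyclophosphamide rats and 5.19, 6.66 and 8.12 in vehicle rats, and changed by −2.54 ± 0.32 (adjusted p = 0.000161). Cdkn1a, the p53 target that halts the cell cycle, stood at 8.47, 8.67 and 9.07 in cyclophosphamide spleens, against 5.00, 5.69 and 6.84 in vehicle spleens. Its organ difference was 0.14 ± 0.33 in cyclophosphamide rats (adjusted p = 0.708) and 2.61 in vehicle rats. Errfi1, a brake on growth factor receptors, changed by −1.90 ± 0.23, and Itih1, which carries hyaluronan in plasma, by −1.57 ± 0.24.

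Pltp and Cela1 were the 2 genes that were spleen-rich in cyclophosphamide rats and liver-rich in vehicle rats. Pltp, the phospholipid transfer protein of plasma, stood at 7.12, 7.67 and 8.33 in cyclophosphamide livers and at 8.85, 10.02 and 10.56 in cyclophosphamide spleens. In vehicle livers it stood at 8.36, 8.96 and 9.21 and in vehicle spleens at 7.94, 8.29 and 9.17, and the change was −2.71 ± 0.29 (adjusted p = 5.68e-05). Cela1, a pancreatic elastase, changed by −3.47 ± 0.66, and by −2.79 without rat 2003, whose spleen carried pancreas RNA. Its organ difference in cyclophosphamide rats was −1.76, and −1.09 without that rat. The second value is less than 2-fold below the median gene of the main fit (−0.62), so the spleen-rich status of Cela1 rested on rat 2003.

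On the spleen side, the B cell and red cell genes lost most of their distance from liver. Of 13 B cell genes, 8 were spleen-rich in cyclophosphamide rats and all in vehicle rats. All 13 were still called higher in spleen in cyclophosphamide rats, where 61.4% of all genes were. All 13 changed toward liver, with a median change of 3.04. The median shift was −0.03 in liver and −3.26 in spleen. Cd79b, a signalling chain of the B cell receptor, stood at 5.39, 6.75 and 7.51 in cyclophosphamide spleens, against 11.53, 11.81 and 12.18 in vehicle spleens, and at or near the floor in livers. No cyclophosphamide spleen overlapped with a vehicle spleen, and the change was 5.18 ± 0.28 (adjusted p = 1.04e-06). Ms4a1, the CD20 antigen, changed by 5.21 ± 0.45, Fcer2, the low-affinity IgE receptor, by 4.07 ± 0.19 and Pou2af1, a coactivator of antibody genes, by 3.70 ± 0.16. Among the largest changes outside the list were B3gnt5, an enzyme of glycolipid synthesis, at 4.74 ± 0.21 and Bcl11a, a transcription factor of B cell precursors, at 4.39 ± 0.19. Of the antibody-forming cell genes, Jchain, which joins antibody units, stood at 11.31, 11.73 and 12.07 in cyclophosphamide spleens and 12.40, 12.58 and 12.75 in vehicle spleens, with liver at or near the floor in 6 cyclophosphamide rats. Its change of −0.79 ± 0.17 was 0.13 with a floor of 64 and 0.10 with the mean of its probe sets. Mzb1, a chaperone of antibody secretion, moved toward liver by 2.95 ± 0.15.

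Of 22 erythroid genes, 5 were spleen-rich in cyclophosphamide rats and 16 in vehicle rats. In cyclophosphamide rats 9 were still called higher in spleen and 2 higher in liver. Changes toward liver passed for 15 and toward spleen for 1, and the median change was 2.78, from a median shift of −0.20 in liver and −3.47 in spleen. Ahsp, the chaperone of alpha globin, stood at 5.00, 5.26 and 5.76 in cyclophosphamide spleens, against 11.01, 12.02 and 12.33 in vehicle spleens. Liver was near the floor in both treatments, the change was 6.27 ± 0.24 (adjusted p = 1.72e-07), and the organ difference left in cyclophosphamide rats did not pass, at −0.30 ± 0.17 (adjusted p = 0.122). Hemgn, a nuclear protein of blood precursors, changed by 5.44 ± 0.29 and Klf1, the master factor of red cell genes, by 3.67 ± 0.25. Alas2, which starts haem synthesis in red cell precursors, was lower in both organs: it stood at 5.00, 5.00 and 5.30 in cyclophosphamide livers and at 5.22, 5.41 and 6.50 in cyclophosphamide spleens. Vehicle livers held 7.99, 8.14 and 8.59 and vehicle spleens 11.81, 12.27 and 12.81. The change was 3.53 ± 0.21, and the organ difference that was left, −0.49 ± 0.15, turned sign when arrays were centred or quantile normalised. Epor, the erythropoietin receptor, did not pass for a change, at −2.72 ± 0.22 in cyclophosphamide rats and −2.89 in vehicle rats (change 0.17 ± 0.32, adjusted p = 0.711), nor did Gypc, a membrane glycoprotein of red cells (0.26 ± 0.10, adjusted p = 0.0661).

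Globin RNA went the other way. Hbb, beta globin, was at the floor in all 6 cyclophosphamide livers and stood at 7.23, 8.81 and 11 in cyclophosphamide spleens, against 12.74, 13.08 and 13.33 in vehicle livers and 12.34, 13.17 and 13.62 in vehicle spleens. Both organs were lower in cyclophosphamide rats without overlap. The organ difference did not pass in vehicle rats (−0.09, adjusted p = 0.838), and spleen was at least 15-fold higher in cyclophosphamide rats, with a change of at least 3.83 ± 0.51 in size toward spleen (adjusted p = 0.000212). The 5 probe sets that name several globin genes ran from 5.00 to 8.82 in cyclophosphamide livers and from 6.20 to 11.65 in cyclophosphamide spleens. In vehicle rats they ran from 11.60 to 13.34 in liver and from 12.63 to 13.73 in spleen.

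In 5 genes liver-rich status in cyclophosphamide rats stood against spleen-rich status in vehicle rats, and Fech and Slc25a37 among them were chosen after their values were seen. Tspan33, a tetraspanin of red cell precursors and activated B cells, stood at 6.85, 7.21 and 7.73 in cyclophosphamide livers and 5.00, 5.00 and 5.73 in cyclophosphamide spleens. Vehicle livers held 6.92, 7.35 and 7.54 and vehicle spleens 9.24, 9.59 and 9.75. The livers overlapped and the spleens did not. The organ difference was 2.12 ± 0.14 in cyclophosphamide rats and −2.25 in vehicle rats. Car2, a carbonic anhydrase of red cells and other cells, had organ differences of 0.51 ± 0.17 in cyclophosphamide rats and −4.09 in vehicle rats. Its small lead in liver lost its call without rat 2001, 2005 or 4005 (0.35 to 0.45, adjusted p up to 0.0711) and was −0.32 with the mean of its probe sets. Fech, the last enzyme of haem synthesis, stood at 1.21 in cyclophosphamide rats and −1.88 in vehicle rats, and Slc25a37, the mitochondrial iron importer mitoferrin, at 0.48 in cyclophosphamide rats and −2.23 in vehicle rats. Treml1, a receptor of platelet granules, stood at 0.54 ± 0.17 in cyclophosphamide rats and −2.32 in vehicle rats.

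**Figure D3:**
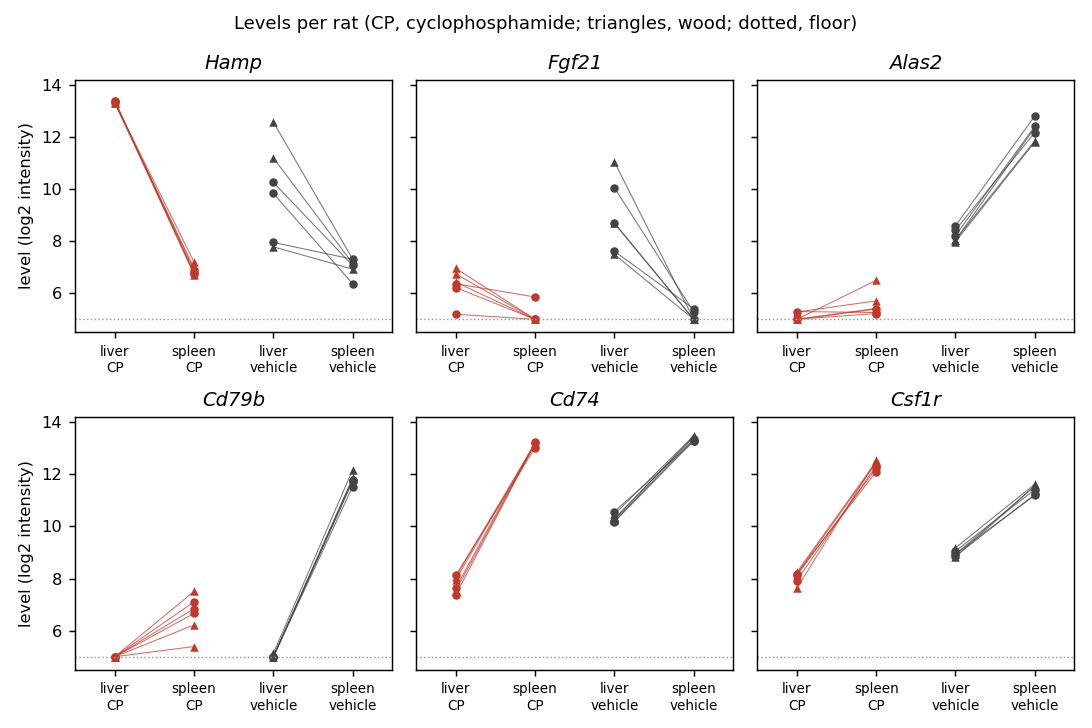
Level (log2 intensity) of 6 genes in liver and spleen of each rat, with lines joining the organs of a rat, cyclophosphamide rats (CP, 6) left of vehicle rats (6), triangles for wood cages, circles for no wood and the dotted line at the floor of 5.00. Hamp is near 13.3 in all 6 cyclophosphamide livers, Alas2 and Cd79b lose their spleen level, Cd74 loses its liver level, and Csf1r has steeper lines in cyclophosphamide rats.

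Mitosis genes lost much of their spleen lead. Of 32 mitosis genes, 9 were spleen-rich in cyclophosphamide rats and 30 in vehicle rats. In cyclophosphamide rats 30 were still called higher in spleen, where 61.4% of all genes were. Changes passed for 29 toward liver and 0 toward spleen, and the median change was 1.54. Mki67, which marks cycling cells, was at the floor in all 12 livers and stood at 7.61, 7.98 and 8.81 in cyclophosphamide spleens, against 9.74, 10.57 and 11.02 in vehicle spleens. The organ difference ran from −3.81 to −2.61 over the 6 cyclophosphamide rats, so that spleen led in each, and the change was 2.39 ± 0.24 (adjusted p = 3.28e-05). Cenpf, a kinetochore protein, changed by 2.88 ± 0.25 and Ccnb2, a mitotic cyclin, by 2.56 ± 0.20. Top2a, the topoisomerase of dividing cells, changed by 1.44 ± 0.46 (adjusted p = 0.0304) and lost its call without rat 1001, 1005, 2005, 3003, 4003 or 4005 (adjusted p up to 0.0699).

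DNA replication genes moved less than mitosis genes in median, without a test of that difference. Of 26 members, 19 were spleen-rich in cyclophosphamide rats and 23 in vehicle rats, and all 26 were still called higher in spleen in cyclophosphamide rats. Changes passed for 13 toward liver and 1 toward spleen, and the median change was 0.69. Mcm3, a subunit of the replication helicase, changed by 1.57 ± 0.22 and Mcm6, another subunit, by 0.64 ± 0.14. Pola2, a subunit of the polymerase that starts new strands, was at the floor in all 12 livers and higher in cyclophosphamide spleens (8.69, 8.97 and 9.36) than in vehicle spleens (7.88, 8.39 and 8.83). Those ranges overlapped, and the change was −0.62 ± 0.13 (adjusted p = 0.00348).

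The granule genes RatNP-3b, Np4 and Camp of maturing neutrophils lost their spleen lead, and the lead of most platelet genes was smaller. RatNP-3b, a neutrophil defensin, stood at 5.00 in 5 cyclophosphamide spleens and 5.31 in the sixth, against 9.48, 9.98 and 11.74 in vehicle spleens, and changed by 5.04 ± 0.28 (adjusted p = 1.12e-06). Np4, a second defensin, changed by 4.42 ± 0.37 and Camp, the cathelicidin, by 2.90 ± 0.36. S100a9, a calcium-binding protein of neutrophils and monocytes, was kept in part, at 7.47, 9.27 and 10.53 in cyclophosphamide spleens and 10.09, 11.12 and 12.42 in vehicle spleens. These ranges overlapped, and the organ difference was −4.05 ± 0.31 in cyclophosphamide rats. Over 10 granulocyte genes, 5 changed toward liver and 1 toward spleen, with a median change of 1.67. That median was 0.07 over the 8 genes tested with blanks left missing and −0.48 over those above the floor on all 24 arrays. Of 12 platelet genes, 6 were spleen-rich in cyclophosphamide rats and 11 in vehicle rats, and 10 were still called higher in spleen in cyclophosphamide rats. Changes toward liver passed for 9 and toward spleen for 0, with median organ differences of −1.46 in cyclophosphamide rats and −2.52 in vehicle rats. Tubb1, the platelet tubulin, changed by 2.69 ± 0.21. Pf4, the platelet factor stored in alpha granules, kept an organ difference of −5.99 ± 0.18 in cyclophosphamide rats and −5.55 in vehicle rats (change −0.44 ± 0.25, adjusted p = 0.193). Without rat 2003 that change was −0.63 (adjusted p = 0.0416).

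Most T cell genes were spleen-rich in either treatment. Of 21 members, 20 were spleen-rich in both treatments, with medians of −3.45 in cyclophosphamide rats and −3.80 in vehicle rats. Changes toward liver passed for 6 and toward spleen for 2, and the 6 became 3 without rat 1001, 1005, 3005 or 4003 and 2 without rat 3001 or 4001. Cd8a, the coreceptor of cytotoxic T cells, was at the floor in all 12 livers and stood at 9.37, 9.65 and 9.87 in cyclophosphamide spleens and 9.11, 9.67 and 9.89 in vehicle spleens. The spleens overlapped fully, and the change was −0.05 ± 0.12 (adjusted p = 0.788). Neither did Cd3d, Cd3e, Lck or Tcf7, of the T cell receptor complex, its kinase and a T cell factor, pass for a change. Cd4, the coreceptor of helper T cells, which rat macrophages carry too, moved toward spleen by 1.51 ± 0.30 in size (adjusted p = 0.00274), and stood at 8.98, 9.33 and 9.62 in cyclophosphamide spleens, against 7.66, 8.10 and 8.73 in vehicle spleens. Il7r, the interleukin 7 receptor, moved the same way (−1.21 ± 0.20), and Lef1, a factor of young lymphocytes, toward liver (0.96 ± 0.13). Of 13 NK and cytotoxic genes, 10 were spleen-rich in both treatments, 4 changed toward liver (2 without rat 3001 or 4003) and 2 toward spleen. Over all genes, 16.9% changed toward liver and 20% toward spleen.

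MHC class II genes, which present antigen, gained in spleen lead, mainly through lower liver levels. All 8 MHC class II genes were spleen-rich in both treatments, with medians of −4.40 in cyclophosphamide rats and −3.31 in vehicle rats. Changes toward spleen passed for 7, or 4 without rat 1003 and 5 without rat 2003, and toward liver for 1. The median shift was −1.29 in liver and −0.24 in spleen. Cd74, the invariant chain that loads class II molecules, stood at 7.38, 7.80 and 8.13 in cyclophosphamide livers and at 13.03, 13.20 and 13.24 in cyclophosphamide spleens. In vehicle rats it stood at 10.18, 10.28 and 10.57 in liver and 13.27, 13.39 and 13.48 in spleen. Neither organ overlapped between treatments, but liver lost far more, and the change was −2.34 ± 0.17 (adjusted p = 5.79e-06). RT1-Da, a class II alpha chain, changed by −1.88 ± 0.14 and RT1-Ba, the other one, by −1.44 ± 0.20. Ciita, the class II transactivator and the 1 member toward liver, changed by 0.83 ± 0.17 (adjusted p = 0.00356) and was chosen after its values were seen.

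Macrophage genes moved apart in both organs. Of 17 members, 0 changed toward liver and 16 toward spleen, and the same counts held without rat 2003. Their median organ difference was −3.66 in cyclophosphamide rats and −2.21 in vehicle rats, from a median shift of −0.53 in liver and 0.93 in spleen. Csf1r, the growth factor receptor of macrophages, stood at 7.63, 8.15 and 8.25 in cyclophosphamide livers and 12.10, 12.39 and 12.54 in cyclophosphamide spleens. Vehicle livers held 8.83, 8.94 and 9.18 and vehicle spleens 11.19, 11.48 and 11.63, so that liver was lower and spleen higher, both without overlap. The change was −1.85 ± 0.14 (adjusted p = 7.54e-06). C1qb, a chain of complement C1q made by macrophages, changed by −2.34 ± 0.29 and Cd68, a lysosomal protein of macrophages, by −1.87 ± 0.26. Mertk, which lets them engulf dead cells, changed by −1.96 ± 0.26 and Folr2, a folate receptor of resident macrophages, by −2.53 ± 0.24.

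Markers of the resident macrophages of either organ stayed on their own side. Spic, the factor of red pulp macrophages, stood at 11.83, 11.97 and 12.10 in cyclophosphamide spleens and 10.39, 10.55 and 10.84 in vehicle spleens. With every liver at the floor, spleen led by at least 125-fold in cyclophosphamide rats, and the change was −1.39 ± 0.10 (adjusted p = 4.59e-06). Itgad, an integrin of the same cells, led by at least 134-fold. Clec4f, a lectin of Kupffer cells, stood at 9.89, 10.30 and 10.57 in cyclophosphamide livers, against 10.87, 11.11 and 11.32 in vehicle livers, with spleens near the floor. Liver kept a lead of 5.23 ± 0.10 in cyclophosphamide rats, and the change was −0.73 ± 0.15 (adjusted p = 0.00262).

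Stromal and vascular genes grew on the spleen side as well. Of 23 stroma and matrix genes, 17 were spleen-rich in cyclophosphamide rats and 10 in vehicle rats, 17 changed toward spleen and 1 toward liver, and the median change was −1.15. The median shift was −0.14 in liver and 1.0 in spleen. Mmp2, a protease of collagen, stood at 9.22, 9.46 and 9.48 in cyclophosphamide spleens, against 6.93, 7.39 and 7.59 in vehicle spleens, while livers overlapped. Its organ difference was −1.92 ± 0.16 in cyclophosphamide rats and 0.37 in vehicle rats (adjusted p = 0.0502), a change of −2.29 ± 0.22 (adjusted p = 3.13e-05). Postn, a matrix protein of activated fibroblasts, changed by −1.85 ± 0.15 and Pdgfra, the platelet-derived growth factor receptor alpha of fibroblasts, by −1.70 ± 0.21. Col6a1, a collagen chain, turned: its organ difference was −1.23 ± 0.15 in cyclophosphamide rats and 0.81 in vehicle rats. Fn1, fibronectin, which hepatocytes secrete, was the 1 member toward liver, at 1.15 ± 0.23. Of 15 endothelial genes, 1 changed toward liver and 13 toward spleen, with a median change of −0.73. Plvap, the diaphragm protein of fenestrated vessels, changed by −1.63 ± 0.30, and Lyve1, a hyaluronan receptor that liver sinusoids share, led in liver by 2.14 ± 0.19 in cyclophosphamide rats and 3.23 in vehicle rats. Vwf, which vessels and platelets hold, was the member toward liver (0.77 ± 0.16).

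**Figure D4:**
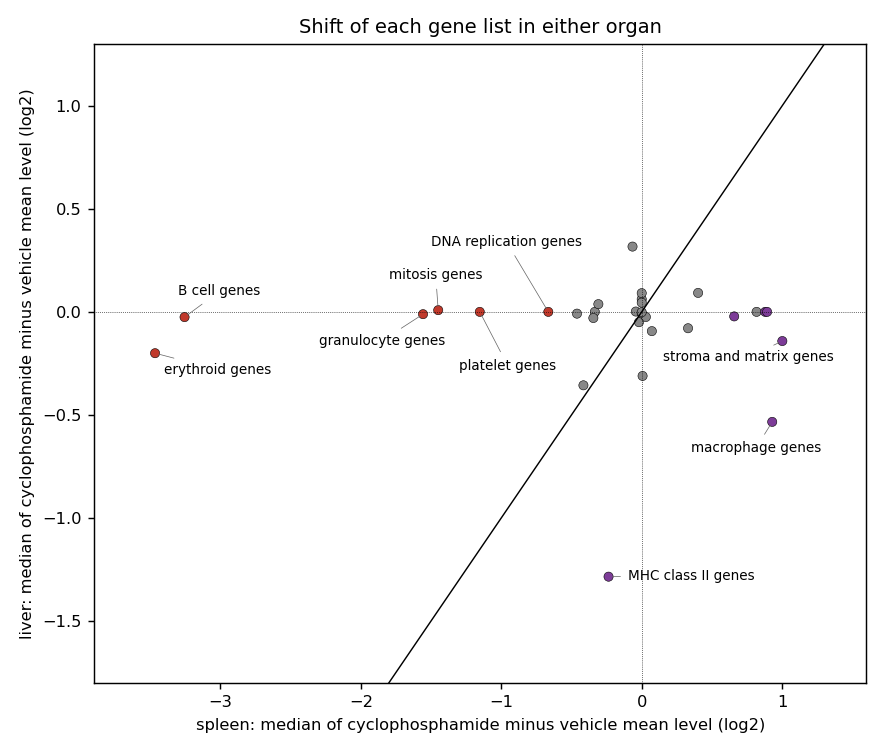
Median shift between treatments (log2, cyclophosphamide minus vehicle mean level) of the tested members of each of 31 gene lists in liver, vertical axis, and spleen, horizontal axis, with the line of equal shifts drawn, red points for lists whose median change lies well toward liver, violet points for those well toward spleen and grey for the others. Erythroid and B cell genes lie near −3.47 and −3.26 in spleen with little shift in liver, macrophage genes at 0.93 in spleen and −0.53 in liver, and MHC class II genes at −0.24 in spleen and −1.29 in liver.

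Several genes of white pulp structure led in spleen in both treatments. Coch, a secreted protein of follicular cells in mouse spleen, had the largest organ difference toward spleen of the genes named. It stood at 12.78, 13.03 and 13.18 in cyclophosphamide spleens and 12.54, 12.71 and 12.83 in vehicle spleens, with all 12 livers at the floor, so that spleen led by at least 258-fold in cyclophosphamide rats. Ccl21, the chemokine that draws T cells, stood at 12.73, 12.84 and 12.91 in cyclophosphamide spleens and 12.28, 12.46 and 12.60 in vehicle spleens. Its organ difference was −7.69 ± 0.10 in cyclophosphamide rats and −7.45 in vehicle rats (change −0.24 ± 0.15, adjusted p = 0.23), and without rat 2003 the change was −0.37 (adjusted p = 0.017). Cxcl13, the chemokine that draws B cells, led in spleen by 6.50 ± 0.15 (change −0.57 ± 0.21, adjusted p = 0.0515). Ccl19, a second T cell chemokine, changed by −1.32 ± 0.21 and Nkx2-3, a factor needed for spleen formation in mouse, by −1.74 ± 0.11. Cxcl12, a stromal chemokine, changed by −1.35 ± 0.12, although its organ difference of −0.59 in cyclophosphamide rats was 0.26 with arrays centred. Ltb, lymphotoxin beta of lymphocytes, moved toward liver by 1.20 ± 0.14. Of the 11 homing and organising genes, 1 changed toward liver and 4 toward spleen.

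Genes that were rich in neither organ in vehicle rats and became spleen-rich numbered 673. Ctsk, a collagen-degrading protease, stood at 8.66, 9.12 and 9.32 in cyclophosphamide spleens, against 5.37, 6.45 and 6.63 in vehicle spleens, with livers at or near the floor. The spleens did not overlap, and the change was −2.79 ± 0.24 (adjusted p = 1.29e-05). Ccl24, an eosinophil chemokine, changed by −2.75 ± 0.19, Akr1b8, an aldo-keto reductase, by −2.80 ± 0.22 and Nod1, a sensor of bacterial cell walls, by −2.87 ± 0.29. For Nod1 liver was lower too, at 5.25, 5.49 and 6.17 in cyclophosphamide rats and 6.31, 7.40 and 7.92 in vehicle rats.

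Of 25 interferon-responsive genes, 13 were spleen-rich in cyclophosphamide rats and 14 in vehicle rats. In each direction 5 changed, a share near that of all genes (16.9% toward liver and 20% toward spleen), so only single members are described. Rsad2, the antiviral protein viperin, stood at 5.00, 6.41 and 7.70 in cyclophosphamide spleens, against 11.11, 11.75 and 12.41 in vehicle spleens. It was lower in liver too, at 5.00, 5.00 and 6.25 in cyclophosphamide rats and 6.27, 6.82 and 7.35 in vehicle rats. Its change was 3.91 ± 0.51 (adjusted p = 0.000195). Gbp2, a guanylate-binding protein of antimicrobial defence, stood at 11.32, 11.58 and 11.85 in cyclophosphamide spleens and 10.04, 10.42 and 10.91 in vehicle spleens. In liver it stood at 5.92, 6.32 and 6.74 in cyclophosphamide rats and 6.67, 7.18 and 8.02 in vehicle rats, with a small overlap. Gbp2 changed by −2.07 ± 0.14 (adjusted p = 4.08e-06). Irf7, a factor that raises interferon output, changed by −1.14 ± 0.13 through liver, and Mx1, another antiviral protein, by 0.12 ± 0.11 (adjusted p = 0.424). The promoters of Rsad2, Gbp2 and Irf7 are shown because genes with the same kind of letters moved in opposite directions. Capitals mark the interferon response motif, GAAA and GAAA with 2 bases of any kind between them, which lies on the reverse strand in each.
Rsad2, chr6:48788233-48788292, minus strand: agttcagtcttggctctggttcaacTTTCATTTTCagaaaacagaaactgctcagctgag
Gbp2, chr2:234005667-234005726, plus strand: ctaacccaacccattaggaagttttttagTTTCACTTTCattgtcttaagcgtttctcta
Irf7, chr1:205800058-205800117, minus strand: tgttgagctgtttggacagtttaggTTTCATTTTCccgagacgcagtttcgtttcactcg
The letters begin 147, 31 and 69 bases upstream of the start in Rsad2, Gbp2 and Irf7. Over 250 upstream bases and both strands they occurred in 1140 of 33469 promoters (3.41%) and in 326 of 10979 tested genes with a promoter (2.97%). Of the 20 interferon genes with a promoter, 12 held them (60%), and so did 3 of 17 erythroid genes (17.6%). AGATAAG, which erythroid factors such as Gata1 are known to bind, occurred in 851 promoters (2.54%) and in 236 of 10979 tested genes (2.15%). It was in 2 of 17 erythroid genes (11.8%) and in 17 of 325 genes at least 16-fold on the liver side (5.23%). GTTAAT was in 3 of the 20 interferon genes (15%). None of these letters was confined to its own list.

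Of the machinery that both organs share, respiratory chain and proteasome genes moved little, while most ribosomal protein genes moved toward liver by a small amount. For 22 of 25 respiratory chain and ATP synthase genes and 20 of 23 proteasome subunits the interval of the change lay within 1.5-fold. The share of all genes was 33.4%. Respiratory chain genes had median organ differences of 0.41 in cyclophosphamide rats and 0.46 in vehicle rats, and 14 were liver-rich in cyclophosphamide rats. Sdhc, a subunit of succinate dehydrogenase, changed by −0.44 ± 0.08 (adjusted p = 0.00157). Of 18 cytosolic ribosomal protein genes, 15 changed toward liver and 0 toward spleen, against 16.9% and 20% of all genes. Their median change was small, at 0.35, and for 11 of the 18 the interval lay within 1.5-fold. When arrays were quantile normalised, 7 passed.

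Wood in the cage was set against no wood within cyclophosphamide rats. With limma, 0 of 13257 genes (0.0%) passed for a housing difference in the organ difference, and 1617 (12.2%) had an unadjusted p below 0.05. Without rat 2001, 349 passed, 107 toward liver and 242 toward spleen in wood cages. Zdhhc23, a palmitoyl transferase, had the largest difference toward liver among the genes taken by p: its organ difference was 1.29 with wood and −0.73 without, a difference of 2.02 ± 0.26 (adjusted p = 0.0579). Il1rn, the antagonist of the interleukin 1 receptor, differed by −1.07 ± 0.13 (adjusted p = 0.0579). Its levels were near the floor, at 5.00, 5.00 and 5.77 in cyclophosphamide livers and 5.00, 5.87 and 6.22 in cyclophosphamide spleens.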

How the data were processed

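The deposited values of 30980 probe sets on 24 arrays are log10 intensities. The base was inferred from the span of the middle 98%, 2143-fold as log10 against 10.1-fold as log2, with summarisation and scaling not given in the sources used here. All were converted to log2. Values below an intensity of 32 and the 77831 blank cells of 743520 (10.5%) were set to that floor. Of the probe sets, 20792 name 1 gene, 436 several and 9752 none, by the platform annotation. For 4517 of 14201 genes with several probe sets the one with the highest mean was kept.

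Per the labels' protocols, 5 µg of Qiazol-extracted total RNA was used per array. With R 4.3.3 and limma 3.58.1, each rat's liver minus spleen difference was fitted with 4 treatment and housing means over 12 rats, and p was adjusted by Benjamini-Hochberg over all 13257 genes at 0.05. Liver and spleen of a rat share its number. Own-animal correlations of deviations were −0.031 to 0.195 over 8237 genes, higher than with other rats in 11 of 12, and each rat's 2 organs come from 1 animal. Deviations from a mean of 3 rats cancel out within a group, which pushes correlations with the other rats the opposite way. The count of 11 is therefore no separate check of the pairing. Precision is limited by the small number of arrays, 3 for each organ, treatment and housing. The fit was tested on simulated data.

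Named genes, without those known only by locus number, are the 8 largest called organ differences per direction among genes above the floor on all 12 cyclophosphamide arrays, 5 per direction at the floor in the other organ, the 6 largest called changes in each of 4 classes among genes above the floor on a whole organ in both treatments, 3 per direction for housing, up to 4 members per list by difference and 3 by change, and markers; the text gives those that carry a comparison. Members and lists were chosen with earlier results of these data known, and the 2-fold classes after seeing the data. Alternatives covered the floor, blanks, scaling, probe sets, filters, pairing, variance and single rats.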

Additional observations from a re-analysis of the deposited data

Results flagged for a closer look

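The organ difference changed with treatment for 4891 genes by its own test, as the results above describe.

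Of 153 values screened over the 6 cyclophosphamide rats, 19 had 1 rat far from the other 5, where chance gives about 1 in 20. Of these, 8 came from rat 2003, 5 from 4001, 3 from 2001, 2 from 2005 and 1 from 4003. The liver array of rat 2003 had 6060 blank cells, against 4998 to 5206 in the others, and a mean correlation with liver arrays of 0.8474, against 0.9061 to 0.9163. The spleen array of rat 2005 had 1798 blanks, against 1021 to 1155, and a mean correlation of 0.8949, against 0.9126 to 0.9216. It resembled the vehicle spleens without wood, of rats 1001, 1003 and 1005. Those had 1778, 1908 and 1920 blanks and mean correlations of 0.8929, 0.8924 and 0.8968. Vehicle spleens with wood had 1054 to 1183 blanks. In vehicle spleens this array profile cannot be told apart from housing, and its part in the change was not tested.

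Rat 2003 stood apart in 6 named genes. Its organ difference was −5.651 for Cela1 (others −2.032 to −0.3634), −5.354 for Cd68 (−4.082 to −3.481) and −4.237 for Pdgfra (−3.594 to −3.291). It was −2.243 for Col6a1 (−1.152 to −0.7624), −7.023 for Ccl21 (−7.886 to −7.725) and −4.575 for Cldn5, a junction protein of endothelium (−6.208 to −5.777). Rat 4001 had 8.113 for Serpinc1 (others 8.313 to 8.429), −1.497 for Alas2 (−0.4253 to 0.03957), −4.466 for Postn (−5.47 to −5.099) and −3.62 for Stab1, a scavenger receptor of sinusoidal endothelium (−3.099 to −2.905). Its value of 0.98 for Np4, and those of −0.3074 for RatNP-3b in rat 4003 and −0.2206 for Camp in rat 2001, stood against 0 in the other rats, with both organs at the floor. Rat 2001 had 1.526 for Treml1 (0.1011 to 0.5505) and 0.2847 for Plin1, which coats fat droplets (−1.129 to −0.8412). The part of pancreas RNA, blanks or single rats in these values was not tested.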

How the results depend on the processing

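With scaling, the split of genes higher in liver and in spleen moved: 5322 and 4588 in cyclophosphamide rats and 5161 and 4792 in vehicle rats when arrays were centred, and 4801 and 5192, then 4669 and 5361, when quantile normalised. With genes above the floor on all 24 arrays, 7024 (5295 higher in spleen) differed in cyclophosphamide rats and 7031 (5225) in vehicle rats, liver-rich and spleen-rich genes were 1481 and 1410 in cyclophosphamide rats, and 1425 were spleen-rich in vehicle rats. At 2-fold or more, 6256 (1332 higher in liver, 4924 in spleen), 6394 (1426, 4968) and, for the change, 1606 (634 toward liver, 972 toward spleen) passed. At 4-fold from the median, 974 and 1194 genes were liver- and spleen-rich in cyclophosphamide rats and 1083 and 1064 in vehicle rats. The change passed for 2985 genes in rats with wood alone (1298 toward liver, 1687 toward spleen) and 2087 without (874, 1213). These use fewer rats. For housing, 1 gene passed toward liver with a floor of 16, with a floor of 64 and with genes on all 24 arrays, and 2 when centred or quantile normalised. With all probe sets or no filter 4 passed (2 and 2), and with the mean of probe sets or eBayes with trend and robust 1 passed toward spleen. Without the replicate block, so that organs of a rat were not paired, 9 passed (5 and 4), and the change had 2303 toward liver and 2680 toward spleen, the organ difference 2514 and 8112 in cyclophosphamide rats and 2549 and 8112 in vehicle rats. Without pairing the change of Top2a lost its call (adjusted p = 0.094), those of Fgb, Cxcl13 and Adipoq passed (adjusted p = 0.037, 0.019 and 0.0466), the organ difference of Gcgr in cyclophosphamide rats lost its call (0.0876) and that of Mmp2 in vehicle rats passed (0.0144).

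Leaving out 1 rat gave 10336 to 10580 genes in cyclophosphamide rats (2387 to 2477 higher in liver, 7921 to 8103 in spleen), 10358 to 10456 in vehicle rats (2433 to 2493, 7910 to 7963) and 4166 to 5148 for the change (1829 to 2334, 2337 to 2814). Liver-rich genes were 2155 to 2267 and 2264 to 2310, spleen-rich 2768 to 2809 and 2806 to 2880. Housing gave 0 to 349 (0 to 107, 0 to 242), and 1 toward spleen without rat 4003 or 4005. Without the 1 rat, Top2a passed in 6 of 12 refits and Cldn5 in 2.

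Signs turned for a few named genes. In cyclophosphamide rats Gcgr was −0.21 and Zdhhc23 −0.73 without wood alone, Car2 −0.32 with the mean of probe sets, Alas2 0.18 centred and 0.21 quantile normalised, and Cxcl12 0.26 centred. In vehicle rats Retreg1 was −0.29 and Cxcl12 −0.59 with the mean of probe sets, and Folr2 0.51 centred and 0.49 quantile normalised. The change of Jchain was 0.13 with a floor of 64 and 0.10 with the mean of probe sets. The cause was not tested. With blanks left missing fewer members were tested, and changes toward liver were 1 of 16 for T cell, 4 of 10 for platelet and 7 of 21 for replication genes. Over all alternatives, the change of named genes kept its direction and side of the threshold in 3500 cases, lost its call in 80, gained it in 27 and turned in 2.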

Other observations

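Clock genes, which run the daily rhythm of most cells, shifted as well. Of 17 members, 2 changed toward liver and 9 toward spleen, with median organ differences of −0.68 in cyclophosphamide rats and −0.22 in vehicle rats. Per3 was at the floor in all 12 livers and stood at 7.38, 8.15 and 9.14 in cyclophosphamide spleens, against 5.00, 6.17 and 6.87 in vehicle spleens, a change of −2.05 ± 0.34 (adjusted p = 0.000904). Hlf, a clock output factor, had an organ difference of 0.33 ± 0.11 in cyclophosphamide rats and 1.78 in vehicle rats. The hour at which organs were taken is not given in the labels, so its part was not tested.

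Targets of p53, which answers DNA damage, moved toward spleen in 8 of 17 and toward liver in 1. Phlda3, a brake on AKT signalling, stood at 9.93, 10.21 and 10.28 in cyclophosphamide spleens, against 8.59, 8.83 and 9.13 in vehicle spleens, and changed by −1.35 ± 0.35 (adjusted p = 0.0119). Ephx1, the microsomal epoxide hydrolase, led in liver by 2.06 ± 0.15 in cyclophosphamide rats and 3.06 in vehicle rats. Of 12 glucocorticoid-responsive genes, 0 changed toward liver and 4 toward spleen, against 16.9% and 20% of all genes.

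Fat cell markers gave mixed values. Cfd, the complement factor that fat cells and macrophages make, had an organ difference of −6.23 ± 0.12 in cyclophosphamide rats and −3.92 in vehicle rats. Its levels were 12.30, 12.71 and 13.13 in cyclophosphamide spleens and 11.27, 11.69 and 12.15 in vehicle spleens. Liver was lower in cyclophosphamide rats, at 6.29, 6.53 and 6.66, against 7.60, 7.75 and 7.88 in vehicle rats. Fabp4, a fatty acid binder of fat cells, macrophages and vessels, was at the floor in all 12 livers and changed by −0.97 ± 0.10. Adipoq, the hormone of fat cells, was at or near the floor in both organs, and its change of 0.56 ± 0.21 did not pass (adjusted p = 0.0543). Of 9 fat cell markers, 0 changed toward liver and 2 toward spleen, against 16.9% and 20% of all genes.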
